A study of Drosophila melanogaster with 12 samples.

Results

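The proteasome subunit genes of Drosophila melanogaster were taken as the genes whose symbol in the count files starts with Prosalpha or Prosbeta, or with Pros, Rpn or Rpt followed by a digit. The pattern found 41 of 14161 genes. They comprise 13 genes of the core particle (7 of the alpha ring and 6 of the beta ring), 15 genes of the regulatory particle (5 ATPases of the base, 3 other subunits of the base and 7 of the lid) and 13 paralogs. RNA of whole embryos was sequenced from wild type (OregonR) and from SHMT[X238] germline clones, with 3 libraries for each genotype in each of the windows 0–1 hr, called preblastoderm, and 1.5–2.5 hr, called late blastoderm. SHMT is the enzyme that interconverts serine and glycine, and SHMT[X238] is a nonsense allele on the X chromosome. The clones were induced in mothers with heat-shock Flp, Frt and ovo[D] on chromosomes that carry marker mutations. The egg is thus made without the wild-type gene, while daughters may carry a paternal copy, and the RNA level of SHMT itself does not check a nonsense allele. The study describes its libraries as triplicates and collected embryos by time after egg lay, so that the later window also took in mutant embryos with severe defects. Whether replicates came from separate parents is not stated, and p-values measure the spread between these libraries.

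The proteasome degrades proteins that carry ubiquitin chains. Its core particle is a barrel of outer alpha rings, which gate the entrance, and inner beta rings, in which Prosbeta1, Prosbeta2 and Prosbeta5 carry the peptidase sites. The regulatory particle caps the barrel: its base holds a ring of ATPases (Rpt) that unfold substrates, together with ubiquitin receptors, and its lid holds Rpn11, which removes the ubiquitin chain. In fly embryos the egg is loaded with maternal RNA, and proteasomal destruction of cyclins by way of the ubiquitin ligase APC/C drives the early nuclear cycles. Many subunits have paralogs that are known in flies from the testis. Older names stand in the files for 11 members, and the current name is given in brackets where it differs, for example Pros35 (Prosalpha6).

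The 12 libraries held 21045142 to 35106444 reads in genes, and 6884 genes averaged at least 50 counts in a group and were tested. Before any result, the stage labels have to be read with care. Summed over 12 RNAs of zygotic blastoderm genes such as eve, ftz and slam, wild-type libraries held 6834 to 10023 CPM (the usual depth-scaled count unit, here with TMM scaling) under the 0–1 hr label and 170 to 249 CPM under the 1.5–2.5 hr label. Summed over 10 maternal RNAs such as bcd, osk and exu, they held 745 to 917 and 2980 to 3287 CPM. SHMT libraries ran the same way, with 3680 to 6850 against 153 to 233 CPM for the zygotic and 1076 to 1328 against 2383 to 2755 CPM for the maternal RNAs. The marker sums thus ran against the labels in both genotypes. By gene, all 12 zygotic RNAs were lower under the 1.5–2.5 hr label in both genotypes at an adjusted p under 0.05 (edgeR). Of the 10 maternal RNAs 9 were higher and 1 lower in wild type, and 8 were higher and 1 lower in SHMT. Groups are named by their labels below. Words such as rose and fell follow the order of the labels and do not describe a course of development. With the labels exchanged every difference between labels keeps its size and changes sign. Each comparison of the genotypes under a label would then belong to the other window. Replicate 1 of both genotypes under the 0–1 hr label had over 11% of its reads outside genes (11.7% and 11.4%), and in SHMT at that label replicate 3 stood apart from replicates 1 and 2. The 10 follicle cell markers, genes of eggshell proteins, summed to at most 0.531 CPM except in replicate 2 of wild type under the 0–1 hr label (4.68 CPM).

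Of the 41 members 28 were tested: 12 core genes, all 15 regulatory genes and the paralog Rpt3R. Prosalpha1, a subunit of the alpha ring, stood at 0 in all 12 libraries, as did CG30382 (Prosalpha1R), the gene of a near-identical protein. Its level is therefore uncertain, since reads that fit both copies may not have been counted. Under the 1.5–2.5 hr label the 27 core and regulatory genes lay close together, from 182 (Rpn7) to 435 CPM (Rpn6) in the wild-type means. Under the 0–1 hr label they spread from 14.2 (Rpn11) to 846 CPM (Prosbeta7). All core genes lay in the upper part of that spread, at 369 CPM or more, together with Rpt4, Rpn12 and Rpn6 of the regulatory particle, while the other 12 regulatory genes lay at 218 CPM or less.

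**Figure D1:**
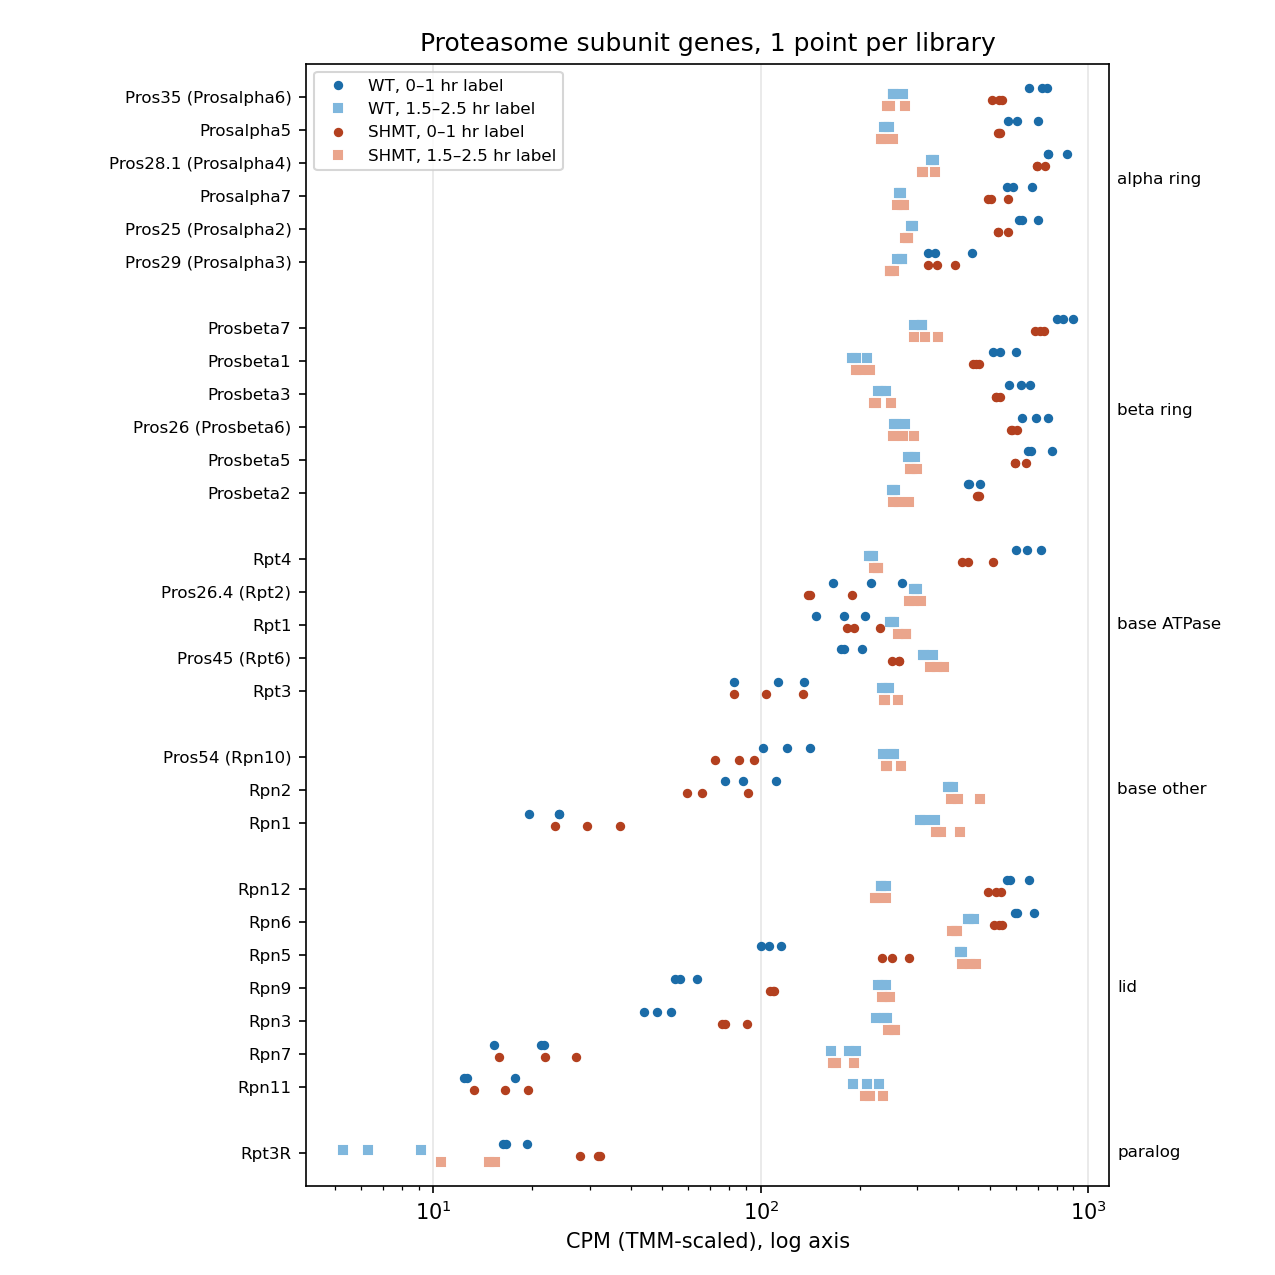
CPM (log axis) of the 28 tested proteasome subunit genes, with 1 point for each library of the 4 groups and genes grouped by class. Circles (0–1 hr label) stand to the right of squares (1.5–2.5 hr label) for all 12 core genes, and to their left for 12 of 15 regulatory genes, from 12.4 CPM for Rpn11 upward.

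The first comparison asks how subunit RNAs differed between the collections. All 12 tested core genes were lower under the 1.5–2.5 hr label in both genotypes, with a median log2 difference of −1.32 in wild type (range −1.47 to −0.47) and −1.09 in SHMT (range −1.18 to −0.50). Over all 6884 genes the medians were −0.04 and −0.06. Of all genes tested, 45.9% were called lower and 45.4% higher in wild type, and 44.6% and 42.8% in SHMT, a call being an adjusted p under 0.05. Against this the regulatory particle was split. In both genotypes 12 of its 15 genes were higher under the 1.5–2.5 hr label and 3 were lower, with medians of 1.12 in wild type and 1.15 in SHMT. For each tested core and regulatory gene the 3 libraries of one label lay wholly above or below the 3 of the other in both genotypes. How many of all genes tested parted in this way was not counted, and most of them were called between the labels, as given above. When scaled by library size alone and not by TMM, the differences had a median over all genes of 0.48 in wild type and 0.21 in SHMT. Relative to all genes the core median was −1.29 under either scaling in wild type and −1.03 in SHMT, and Pros29 (0.05, adjusted p = 0.71 in wild type) was the only tested member whose direction flipped.

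The catalytic subunits of the beta ring fell with the rest of the core. Prosbeta1 (FBgn0010590, chromosome arm 2R), which carries the caspase-like site, stood at 536, 602 and 512 CPM in wild-type replicates 1 to 3 under the 0–1 hr label, and those of the 1.5–2.5 hr label gave 189, 211 and 195 CPM. In SHMT it stood at 443, 455 and 462 and at 195, 215 and 201 CPM. All libraries labelled 0–1 hr were more than 2 times above every library labelled 1.5–2.5 hr. The log2 difference was −1.47 ± 0.08 (SE) in wild type and −1.16 ± 0.08 in SHMT (edgeR, adjusted p = 4.2e-09 and 4.7e-08).

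Prosbeta5 (FBgn0029134, 2R), the chymotrypsin-like subunit, stood at 667, 776 and 656 CPM in wild type under the 0–1 hr label and at 296, 281 and 288 CPM under the 1.5–2.5 hr label. In SHMT it stood at 596, 598 and 643 and at 289, 300 and 285 CPM. The groups of the 2 labels did not overlap, and the log2 differences were −1.28 ± 0.08 and −1.07 ± 0.08 (SE). Prosbeta2 (FBgn0023174, 3L), the trypsin-like subunit, changed least in the beta ring. It stood at 432, 466 and 427 CPM against 252, 257 and 254 CPM in wild type, and at 459, 458 and 464 against 254, 283 and 264 CPM in SHMT, with differences of −0.80 ± 0.07 and −0.79 ± 0.07 on the log2 scale. Prosbeta7 (FBgn0250746, 3R), a structural subunit, stood at 837, 896 and 804 CPM in wild type under the 0–1 hr label, the highest mean CPM of the members in that group, and at 686, 709 and 732 CPM in SHMT. It stood at 294, 310 and 311 and at 293, 347 and 317 CPM under the 1.5–2.5 hr label, and so was again parted by label without overlap. The remaining beta genes, Prosbeta3 and Pros26 (Prosbeta6), differed by −1.41 and −1.39 in wild type.

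In the alpha ring the largest difference was that of Pros35 (Prosalpha6, FBgn0250843, 2L). It stood at 721, 745 and 659 CPM in wild type under the 0–1 hr label and at 253, 271 and 252 CPM under the 1.5–2.5 hr label, a log2 difference of −1.45 ± 0.08 (SE). In SHMT it stood at 533, 507 and 546 and at 243, 275 and 249 CPM, a difference of −1.05 ± 0.08. Prosalpha5, Pros28.1 (Prosalpha4), Prosalpha7 and Pros25 (Prosalpha2) followed with −1.37 to −1.16 in wild type. Pros29 (Prosalpha3) stood apart from the rest of the ring with −0.47 ± 0.11 in wild type and −0.50 ± 0.11 in SHMT (edgeR, adjusted p = 0.0016 and 0.0011). It was the lowest core gene under the 0–1 hr label (369 ± 63.4 CPM in wild type, SD, n = 3), whereas under the 1.5–2.5 hr label, at 266 ± 5.79 CPM, it lay amid the others.

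Among the ATPases of the base, Rpt4 (FBgn0028685, X) moved like a core gene. It stood at 603, 717 and 649 CPM in wild type under the 0–1 hr label and at 217, 213 and 220 CPM under the 1.5–2.5 hr label, the largest fall of any member (−1.60 ± 0.09, SE). In SHMT it stood at 410, 430 and 510 and at 228, 228 and 222 CPM (−0.99 ± 0.09). The other ATPases rose: Rpt3 by 1.12 ± 0.18 in wild type, Pros45 (Rpt6) by 0.79 ± 0.08, Rpt1 by 0.50 ± 0.12 and Pros26.4 (Rpt2) by 0.45 ± 0.16 on the log2 scale. The rise of Pros26.4 in wild type rested in part on replicate 1 under the 0–1 hr label, since without that library it was no longer called. The exons of Pros45, Pros26.4 and Rpt4 share 13.0%, 7.1% and 6.3% of their bases with genes on the opposite strand in the dm6 annotation. As no strand setting is stated for the counting, reads of those bases cannot be assigned for certain. The same limit holds for all 11 tested members that share exon bases with another gene, among them Prosbeta2 (7.9%), Prosbeta5 (7.1%) and Rpn7 (6.3%).

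Rpn1 (FBgn0028695, 3L), a scaffold of the base that binds ubiquitin and shuttle proteins, was among the members that differed most. It stood at 24.2, 19.5 and 24.2 CPM in wild type, and SHMT had 23.5, 37.1 and 29.5 CPM under the 0–1 hr label. Under the 1.5–2.5 hr label wild type had 306, 340 and 316 CPM, and SHMT 406, 343 and 355 CPM. Each library of the latter label was more than 8 times above each of the former, and the log2 differences were 3.82 ± 0.16 and 3.62 ± 0.16 (SE). Rpn2, the other large scaffold, rose by 2.03 in wild type and 2.52 in SHMT. The ubiquitin receptor Pros54 (Rpn10, FBgn0015283, 3L) rose less. It stood at 101, 141 and 120 CPM in wild-type libraries and 72.3, 85.7 and 94.97 CPM in SHMT libraries under the 0–1 hr label, and, in the same order, at 237, 255 and 250 and at 267, 241 and 242 CPM under the 1.5–2.5 hr label, differences of 1.03 ± 0.13 and 1.57 ± 0.13.

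Genes of the lid went in both directions. Rpn11 (FBgn0028694, 2L), the deubiquitinase, had the largest difference of all members. It stood at 12.4, 17.7 and 12.7 CPM in wild type, and SHMT had 13.3, 19.4 and 16.5 CPM under the 0–1 hr label, from 255 to 428 counts in a library. Under the 1.5–2.5 hr label it stood at 191, 229 and 212 and at 236, 207 and 215 CPM, log2 differences of 3.89 ± 0.17 and 3.74 ± 0.17 (SE). The lid scaffolds Rpn7, Rpn3, Rpn9 and Rpn5 rose by 3.22, 2.28, 2.01 and 1.93 in wild type. Rpn12 fell with the core (−1.35 ± 0.08) and Rpn6 by less (−0.53 ± 0.07), a call that Rpn6 lost with library sizes alone. Over the 7 lid genes that the pattern matched, the differences thus ran from −1.35 to 3.89. Lid genes under other symbols are given further below. No member passed the 16-fold threshold that the study uses between stages.

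**Figure D2:**
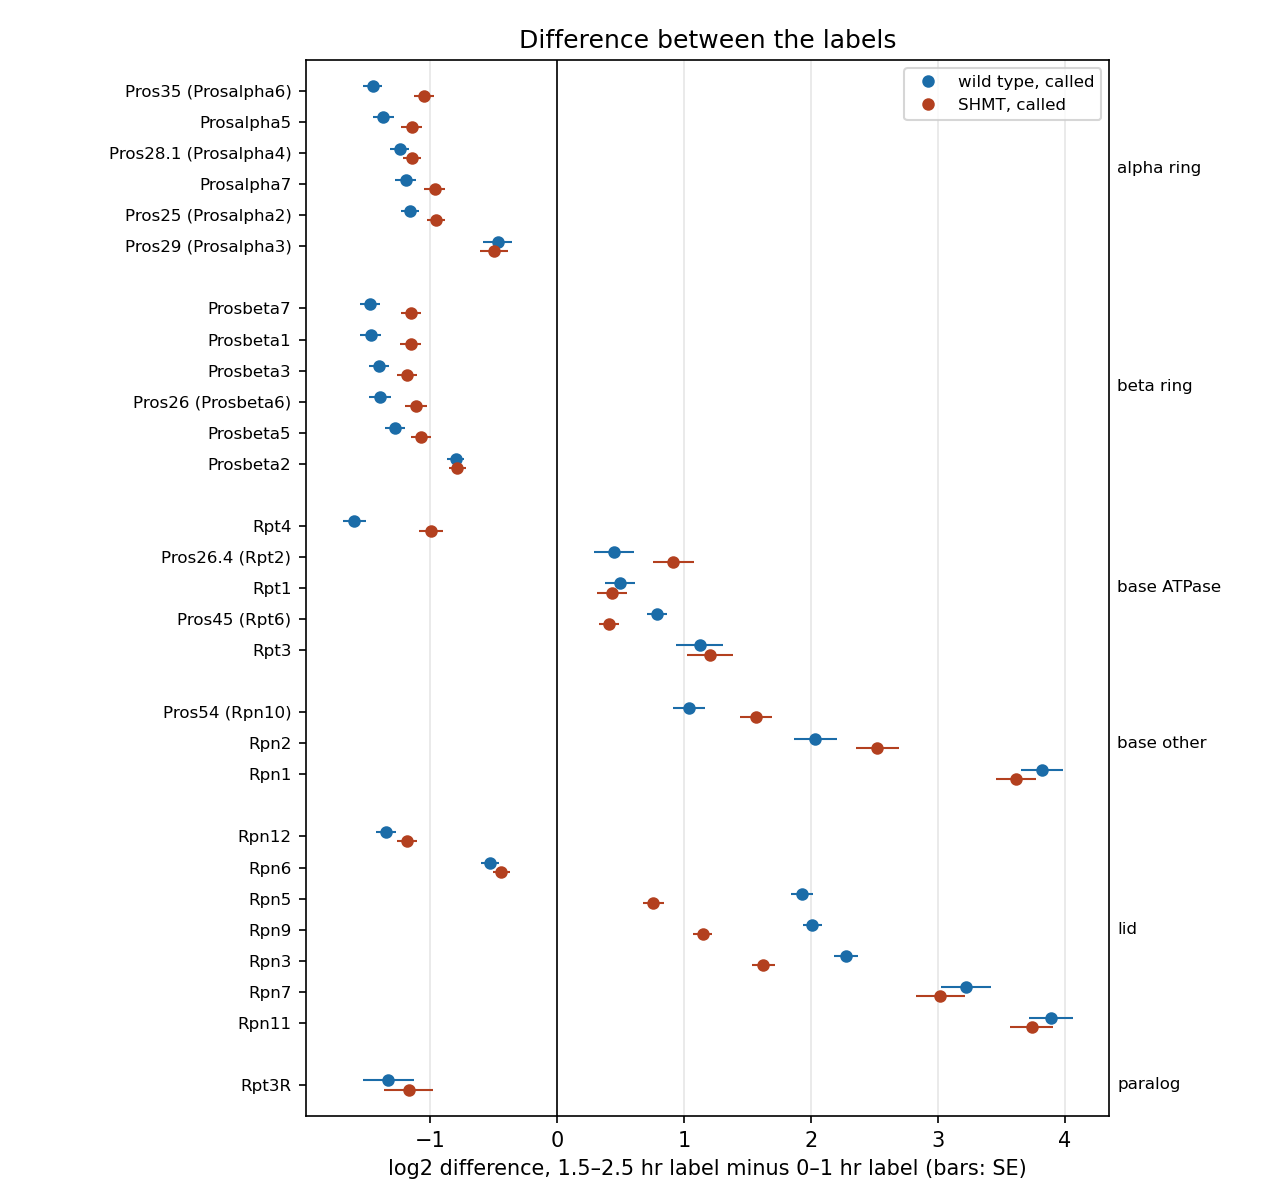
Log2 difference between the labels (1.5–2.5 hr minus 0–1 hr) for the 28 tested members in wild type and SHMT, with bars of 1 SE and genes grouped by class. Core genes lie between −1.47 and −0.47 (Pros29 flips to 0.05 in wild type with library sizes alone), and the regulatory genes run from −1.60 (Rpt4) to 3.89 (Rpn11).

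Summed over the 12 core genes the wild-type libraries held 7379, 8275 and 7120 CPM under the 0–1 hr label and 3151, 3252 and 3189 CPM under the 1.5–2.5 hr label. The 15 regulatory genes summed to 2796, 3393 and 2988 CPM and to 4121, 4307 and 4208 CPM. The ratio of the core to the regulatory sum, which does not depend on library scaling, was 2.49 ± 0.135 (SD, n = 3) under the 0–1 hr label and 0.759 ± 0.00490 under the 1.5–2.5 hr label. In SHMT the ratio was 2.26 ± 0.0860 and 0.735 ± 0.0427, and it lay between 2.19 and 2.36 under the 0–1 hr label, below the 3 wild-type values of 2.38 to 2.64. The ratios of the genotypes overlapped under the 1.5–2.5 hr label. No test was made of these sums, which are descriptions of the libraries.

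**Figure D3:**
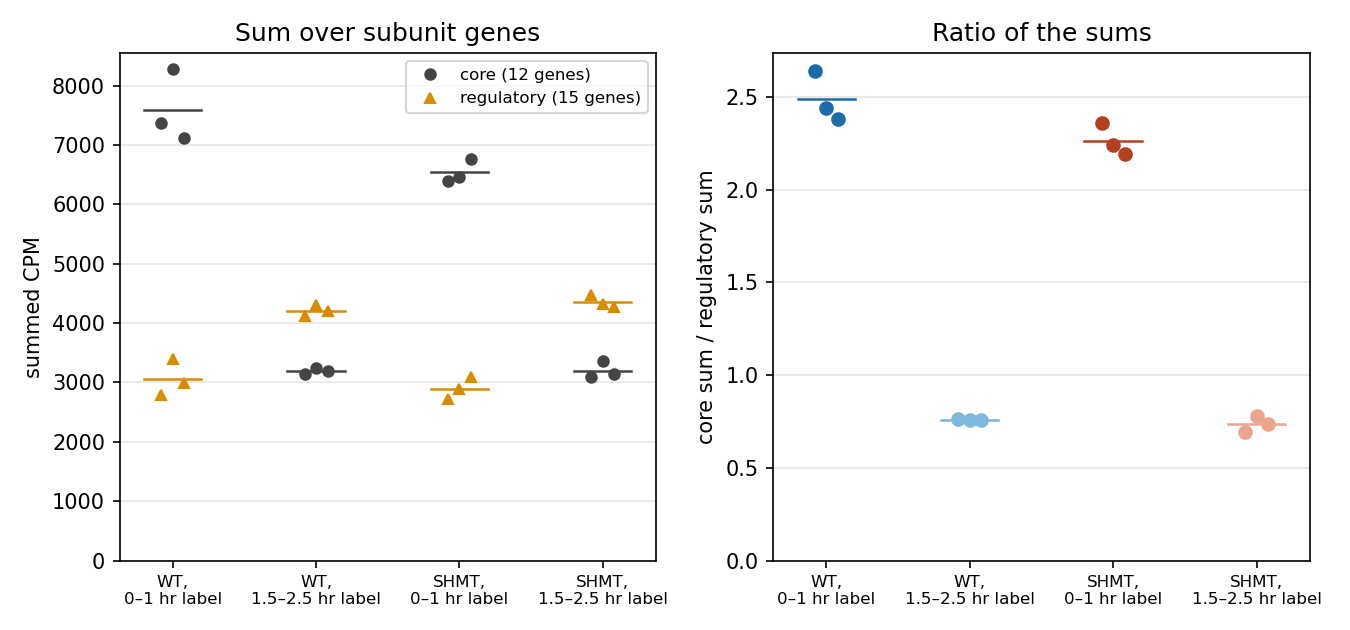
Left, summed CPM of the 12 core and 15 regulatory genes in each library (lines are group means of 3 libraries). Right, the ratio of the sums, which lies at 2.19 to 2.64 in the libraries labelled 0–1 hr and at 0.692 to 0.777 in those labelled 1.5–2.5 hr.

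Levels of different genes were compared per kb of coding length. Reads of exon bases outside the coding sequence may be among the counts, and these bases differ between genes. Exons span 1176 bases against 747 coding bases for Pros28.1, and 3041 against 2757 for Rpn1. The order of genes and the ranges below therefore depend on the length used, and levels per exon length were not computed. In wild type under the 0–1 hr label the 27 genes spanned 8.22 (Rpn1) to 1056 CPM per kb (Pros28.1), a 128-fold range, and under the 1.5–2.5 hr label 116 (Rpn1) to 447 CPM per kb (Pros28.1), a 3.84-fold range. In SHMT the ranges were 87.4-fold and 3.22-fold. The regulatory genes alone spanned 92.1-fold at the 0–1 hr and 2.84-fold under the 1.5–2.5 hr label in wild type, and the core genes 2.27-fold and 1.51-fold. Core genes still lay higher per kb under the 1.5–2.5 hr label, with a median of 346 CPM per kb against 205 for the regulatory genes.

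**Figure D4:**
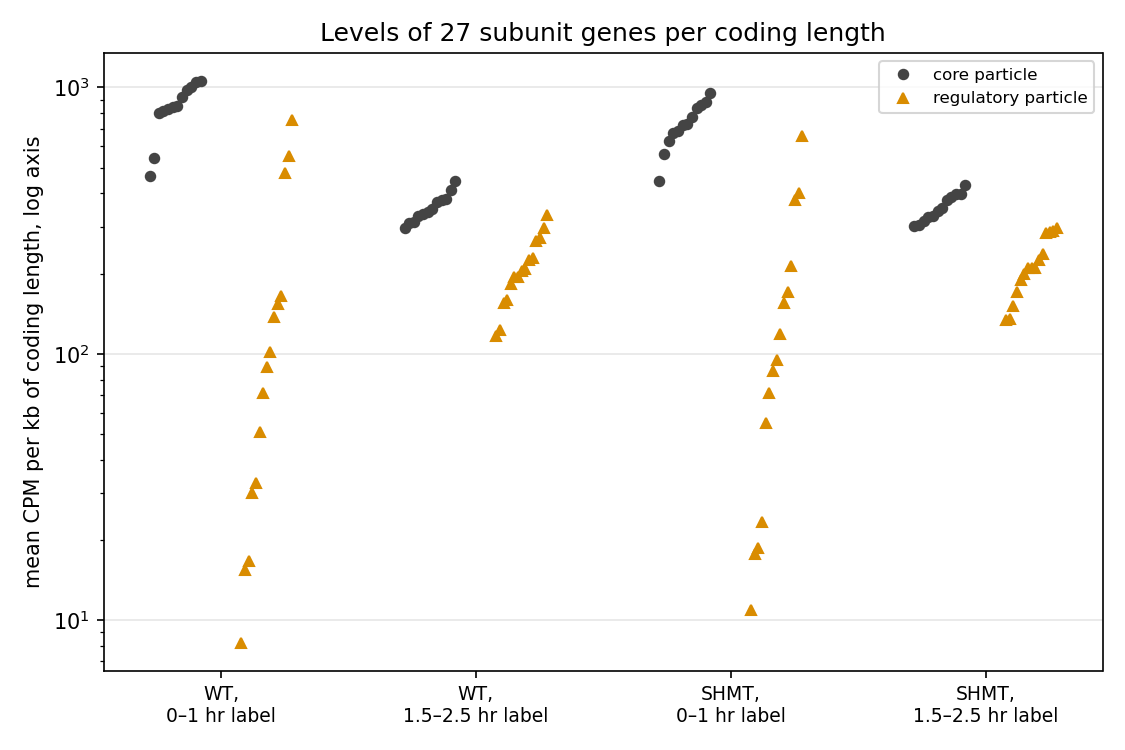
Mean CPM per kb of coding length (log axis) of 27 core and regulatory genes in each group, sorted within particle. The regulatory genes span 92.1-fold in wild type under the 0–1 hr label and 2.84-fold under the 1.5–2.5 hr label, and the core genes 2.27-fold and 1.51-fold.

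The second comparison asks how SHMT mutant embryos differed from wild type within a label. Under the 0–1 hr label 6 members were higher and 14 lower in SHMT, where 32.9% of all genes tested were called higher and 25.8% lower. The higher members were the lid genes Rpn5, Rpn9 and Rpn3, the base genes Pros45 and Rpn1, and the paralog Rpt3R. The lower ones were 9 core genes (median over the core −0.23) and Rpt4, Pros54, Pros26.4, Rpn6 and Rpn12. The 6 calls for Rpn5, Rpn9, Rpn3, Pros45, Rpt3R and Rpt4 were made in each of 21 refits with other scalings, filters, tests or libraries. The other 14 were each lost in at least 1 of them. With library sizes alone the median of all genes moved from 0.02 to 0.25, the core median to −0.002, and only Rpt4 was still called lower, while Prosbeta2, Rpn11 and Rpt1 were called higher as well. The core median relative to all genes was −0.25 either way. The count of lower members was 4 without the 2 libraries with over 11% of reads outside genes, 6 without replicate 2 of wild type, 6 without replicate 1 of SHMT and 7 without its replicate 2 at this label. Without replicate 3 of SHMT, which stood apart, 5 members were higher and 13 lower. Between these groups the marker sums given above also differed: 5 of 12 zygotic RNAs were called lower in SHMT (sums of 3680 to 6850 against 6834 to 10023 CPM, so that 1 library of each genotype met) and 5 of 10 maternal RNAs higher (1076 to 1328 against 745 to 917 CPM), and their part in the differences was not tested. In RNA of whole embryos fewer cells of a kind and less RNA per cell cannot be told apart.

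Rpn5 (FBgn0028690, 3R), a scaffold of the lid, had the largest difference between the genotypes. It stood at 106, 115.4 and 100 CPM in wild-type libraries and 250, 283 and 234 CPM in SHMT libraries under the 0–1 hr label, so that every SHMT library was more than 2 times above every wild-type one (log2 difference 1.26 ± 0.09, SE, edgeR, adjusted p = 8.5e-07). The libraries of the 1.5–2.5 hr label gave 405, 412 and 406 CPM in wild type, and SHMT had 412, 454 and 434 CPM. There the lowest SHMT value equalled the highest of wild type within 1 CPM, and the difference of 0.09 ± 0.08 was not called.

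Rpn9 (FBgn0028691, 3R), also of the lid, stood at 56.7, 63.6 and 54.5 CPM in wild-type libraries and 110, 109 and 107 CPM in SHMT libraries under the 0–1 hr label (0.90 ± 0.07, adjusted p = 2.6e-06 by edgeR). The other label gave 228, 242 and 234 CPM for wild type and then 234, 247 and 240 CPM in the mutant, and the genotypes overlapped. Of its exon bases 15.7% are shared with genes on the opposite strand, the highest share of the tested members. Rpn3, which has no such overlap, stood at 44.1, 53.2 and 48.3 CPM in wild type, and SHMT had 76.0, 90.9 and 77.9 CPM under the 0–1 hr label (0.75 ± 0.09, adjusted p = 4.8e-05 by edgeR). Under the other label the means were 235 ± 8.95 and 252 ± 6.66 CPM (SD, n = 3), a difference of 0.10 ± 0.09 that was not called, although the SHMT libraries (from 244.0 CPM) lay just above those of wild type (up to 242.4 CPM). Rpn11 and Rpn7, the lid genes with the lowest levels under the 0–1 hr label, differed by 0.21 ± 0.16 and 0.16 ± 0.19 and were not called (Rpn11 was with library sizes alone, at 0.44), their libraries overlapping between the genotypes.

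In the base the genes went different ways. Pros45 (Rpt6, FBgn0020369, X) stood at 175, 203 and 180 CPM in wild-type libraries and 252, 264 and 264 CPM in SHMT libraries under the 0–1 hr label, without overlap (0.48 ± 0.08, SE, adjusted p = 0.0003 by edgeR). Under the 1.5–2.5 hr label it stood at 312, 334 and 316 and at 328, 362 and 345 CPM, with overlap. Rpt4, with the values given above, was lower in SHMT under the 0–1 hr label (−0.54 ± 0.09, adjusted p = 0.00044 by edgeR), its 3 SHMT libraries at 410 to 510 CPM all below the wild-type ones at 603 to 717 CPM. Pros54 was lower too (−0.52 ± 0.13, adjusted p = 0.0045) and did not overlap, a call lost with library sizes alone (−0.30). Pros26.4 was lower (−0.47 ± 0.16) but overlapped. For Rpn1 the difference of 0.40 ± 0.15 (adjusted p = 0.037) was lost in 11 of 21 refits and its libraries overlapped.

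Of the core genes Pros35 had the lowest adjusted p under the 0–1 hr label, with 507 to 546 CPM in SHMT against 659 to 745 CPM in wild type (−0.42 ± 0.08, adjusted p = 0.00074 by edgeR; −0.20 with library sizes alone, adjusted p = 0.050). Pros25 (Prosalpha2, FBgn0086134, 3R) stood at 529, 529 and 568 CPM in SHMT and 627, 701 and 612 CPM in wild type (−0.26 ± 0.07), and both were without overlap. Prosbeta1 and Prosbeta7 differed by −0.28 ± 0.08 and −0.25 ± 0.08, and Prosbeta5 by −0.19 ± 0.08 (adjusted p = 0.049 by edgeR). Prosbeta2 (0.06 ± 0.07), Pros29 (−0.06 ± 0.11) and Pros28.1 (−0.15 ± 0.07) were not called by edgeR with TMM. Pros28.1, whose libraries did not overlap, was called lower with RLE scaling and by DESeq2 (−0.20 in each, adjusted p = 0.029 and 0.0046). With library sizes alone none of the 9 core genes was called lower, and Prosbeta2 was called higher (0.28, adjusted p = 0.0058 by edgeR).

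Under the 1.5–2.5 hr label 2.85% of all genes tested were called higher in SHMT and 4.15% lower. Of the members 1 was called higher, Rpt3R, and none lower by edgeR or DESeq2. The log2 differences of the 27 core and regulatory genes lay between −0.15 (Rpn6) and 0.20 (Rpn1), and 1 of them, Rpn6, had an unadjusted p under 0.05. The libraries of the genotypes did not overlap for 7 of the 27, with no call by edgeR or DESeq2. Of these Rpn1, Rpn3, Rpt1 and Rpt4 were higher in every SHMT library and Pros25, Pros29 and Rpn6 lower. The share of all genes tested without such overlap was not counted, so no result is drawn from the 7. The medians were 0.003 over the core and 0.06 over the regulatory genes, beside −0.02 over all genes.

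**Figure D5:**
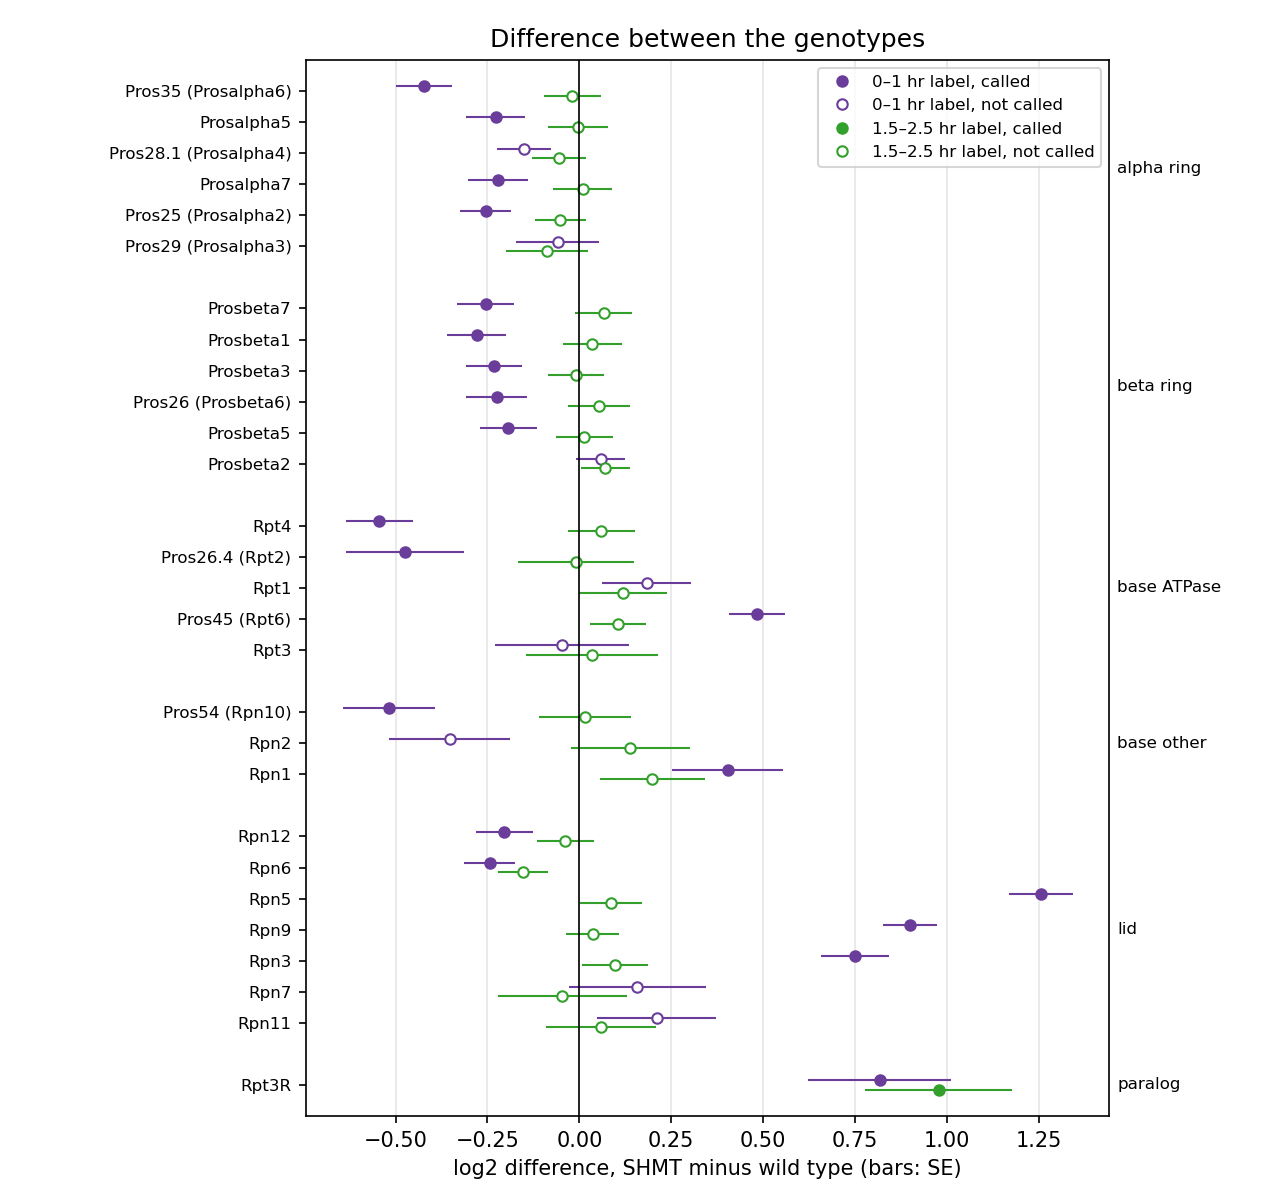
Log2 difference between the genotypes (SHMT minus wild type) of the 28 tested members at both labels, with bars of 1 SE and filled points for calls at an adjusted p under 0.05. Under the 0–1 hr label differences run from −0.54 (Rpt4) to 1.26 (Rpn5), and core genes lie near −0.23, or near 0 with library sizes alone (median −0.002), while under the 1.5–2.5 hr label Rpt3R (0.98) is the only call.

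The difference between the genotypes was then compared between the labels as an interaction, which 12.2% of all genes tested passed in the higher and 26.3% in the lower direction. Of the members 5 passed higher (Rpt4, Pros54, Pros35, Prosbeta7 and Prosbeta1) and 4 lower (Rpn5, Rpn9, Rpn3 and Pros45). Both comparisons within a label have their own wild-type libraries, whereas the comparisons between labels share libraries with those between genotypes. Rpn5, Rpn9, Rpn3 and Rpt4 were called in all 20 refits of the interaction. Prosbeta7, Prosbeta1 and Pros54 lost the call in 12, 11 and 10 of them, Pros35 in 2 and Pros45 in 1, without replicate 2 of SHMT under the 0–1 hr label. The count of 5 went to 1 with library sizes alone, 14 by DESeq2, and 2 without replicate 2 of wild type or replicate 1 or 2 of SHMT under the 0–1 hr label, or replicate 1 or 3 of wild type or replicate 3 of SHMT at the other. Without replicate 2 of either genotype under the 1.5–2.5 hr label it was 3.

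Of the 13 paralogs 5 (Pros28.1A, Prosalpha3T, Prosbeta2R1, Prosbeta4R1 and Prosbeta4R2) stood at 0 in every library, which over the 321273364 reads in genes of the 12 libraries allows a level of up to 0.00915 CPM (3 counts, counting error only). A further 7 had 2 to 108 counts in all libraries together and were below the minimum for testing. Rpt6R had 108, Rpn12R 42, Prosbeta2R2 23, Pros28.1B 10, Rpt4R 8, Prosalpha6T 5 and Prosbeta5R 2 counts. These levels were at most 0.763 CPM in a library, against 175 to 362 CPM for Pros45, of which Rpt6R is the paralog. Rpt6R had 12, 21, 15 and 60 counts over the 3 libraries of wild type labelled 0–1 hr, wild type labelled 1.5–2.5 hr, SHMT labelled 0–1 hr and SHMT labelled 1.5–2.5 hr. The 60 counts fell as 17, 24 and 19 over the replicates, while in wild type at that label 1, 4 and 16 were counted. For Rpn12R the 4 group counts were 2, 0, 13 and 27, with 19 of the 27 in replicate 3. Prosbeta2R2 had 12, 3, 4 and 4 counts, Pros28.1B 0, 1, 6 and 3, Rpt4R 2, 2, 4 and 0, Prosalpha6T 1, 0, 3 and 1, and Prosbeta5R 1, 1, 0 and 0.

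Rpt3R (FBgn0037742, 3R), the paralog of the base ATPase Rpt3, was the exception. It stood at 16.3, 16.6 and 19.3 CPM in wild type, and SHMT had 31.8, 32.2 and 28.0 CPM under the 0–1 hr label, from 298 to 710 counts in a library. The libraries of the 1.5–2.5 hr label gave 6.31, 5.27 and 9.17 CPM for wild type and then 10.5, 14.8 and 15.4 CPM in the mutant. At both labels each SHMT library lay above each wild-type one, with log2 differences of 0.82 ± 0.19 (SE, adjusted p = 0.0040 by edgeR) and 0.98 ± 0.20 (adjusted p = 0.011). The latter call was lost without replicate 1 of wild type or replicate 3 of SHMT at that label (adjusted p up to 0.061), and the difference between the 2 effects was not called (0.16 ± 0.28, adjusted p = 0.68). Rpt3R fell between the labels (−1.33 ± 0.20 in wild type, −1.17 ± 0.20 in SHMT), whereas Rpt3 rose. Its level was 16.4 ± 3.81% of that of Rpt3 in wild type and 30.2 ± 8.86% in SHMT under the 0–1 hr label (SD, n = 3), and 2.87 ± 0.780% and 5.57 ± 1.34% under the 1.5–2.5 hr label. Of the 12 testis markers, dj, Mst84Da and Mst84Db were at 0 in all libraries and 10 genes together gave at most 0.927 CPM in a library. The other 2, bam and mia, brought the sum to 30.8 to 32.7 CPM in wild-type libraries and 73.1 to 85.2 CPM in SHMT libraries under the 0–1 hr label, and to 79.4 to 89.4 and 105 to 122 CPM under the 1.5–2.5 hr label. Between the labels these 2 went opposite ways. Mean bam rose from 14.95 to 78.4 CPM in wild type and from 59.6 to 105 CPM in SHMT. Mia fell from 16.3 to 6.31 CPM in wild type and from 19.8 to 8.52 CPM in SHMT. Both were called higher in SHMT at each label by edgeR, while DESeq2 called 1 of them under the 0–1 hr label and 2 under the other. Bam is also made in the female germline, and whether the difference of bam or mia has a part in that of Rpt3R was not tested.

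A few subunits of the same particles carry other symbols in the files. Of 6 such genes 5 were tested, and 4 were higher and 1 lower under the 1.5–2.5 hr label in wild type by edgeR. Over all genes tested 45.4% were higher and 45.9% lower, and DESeq2 called 3 of the 5 higher and 1 lower. CG17331 (Prosbeta4) fell by 1.29 on the log2 scale like the core, a gene named here after its value was seen. The lid genes Mov34 (Rpn8), the partner of Rpn11, and CG13779 (Sem1) rose by 3.99 and 4.01, and Tbp-1 (Rpt5), an ATPase of the base, by 2.63. CG13779 thus lay just past 16-fold in wild type, whereas in SHMT no gene of this list exceeded 3.27. CG13349 (Rpn13), a ubiquitin receptor, stood at 97.4, 130 and 125 CPM in wild type, and SHMT had 76.8, 79.5 and 103 CPM under the 0–1 hr label. The other label gave 148, 140 and 156 CPM for wild type and then 184, 152 and 138 CPM in the mutant, with log2 differences between labels of 0.33 (adjusted p = 0.048 by edgeR) and 0.87. Between the genotypes under the 0–1 hr label Mov34, CG13779 and Tbp-1 were higher in SHMT by 1.06, 1.06 and 0.42, and CG13349 was lower (−0.44). Over all genes tested 32.9% were called higher and 25.8% lower there.

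Other genes of the ubiquitin pathway were read from lists set by function. Over all genes tested, 45.4% were higher and 45.9% lower between labels in wild type, and 32.9% were higher and 25.8% lower between genotypes under the 0–1 hr label. Of the COP9 signalosome, a complex built like the lid, all 8 tested genes were lower under the 1.5–2.5 hr label in wild type, with log2 differences of −1.62 to −1.30 (median −1.44, beside −0.04 over all genes). Of these 4 were also lower in SHMT than in wild type under the 0–1 hr label, among them CSN1b, CSN5 and CSN6 (−0.44, −0.28 and −0.29), where 25.8% of all genes were lower. Of ubiquitin genes and their E1 and E2 enzymes 5 of 16 tested were higher and 11 lower under the 1.5–2.5 hr label in wild type (median −1.05). The polyubiquitin genes Ubi-p5E and Ubi-p63E and the E2 enzyme vih, which serves the APC/C, were higher in SHMT under the 0–1 hr label by 1.73, 1.84 and 2.09. Of the APC/C and its activators 10 of 13 tested were higher under the 1.5–2.5 hr label and 3 lower (median 1.49 in wild type), and 8 were higher and 1 lower in SHMT under the 0–1 hr label (32.9% and 25.8% over all genes), with Apc7 (2.52), Rca1 (1.97), which is an inhibitor of the complex, and Apc10 (1.61) at the lowest adjusted p.

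The next list held genes of the SCF and CTLH ligases together with Cul-2, Cul-3, Cul-4 and Cul-5, which belong to other ligases. Of its 16 genes 8 were higher and 8 lower between labels in wild type (median 0.004), about as over all genes (45.4% and 45.9%). Between genotypes under the 0–1 hr label 5 were lower in SHMT and 4 higher (25.8% and 32.9% over all genes), among them CG7611 (−0.72), Cul-3 (0.36) and lin19 (Cul1, −0.30). Of 16 tested genes for assembly factors, inhibitors, activators and shuttles of the proteasome 9 were higher and 6 lower between labels in wild type (median 0.28), beside the same 45.4% and 45.9%. Between genotypes under the 0–1 hr label 4 of these 16 were higher in SHMT and 4 lower (32.9% and 25.8% over all genes). CG4673 (Npl4) and Ufd1-like, cofactors of the segregase TER94, were higher in SHMT there by 1.19 and 0.77. TER94 itself went the other way, at 424, 492 and 672 CPM in SHMT against 810, 915 and 1002 CPM in wild type. Higher in SHMT by 1.71 was cnc, the fly homologue of the Nrf transcription factors that control proteasome genes in mammals. No gene of these 6 lists was called between the genotypes under the 1.5–2.5 hr label by edgeR, while DESeq2 called 1 gene of the subunits under other symbols and 1 of the assembly list. An unadjusted p under 0.05 was found for 1 and 3 genes of those lists, for 1 of the APC/C and for none of the others. Each gene list was compared with all genes only by its counts and medians, and no difference between lists was tested.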

How the data were processed

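Trizol RNA was sequenced on an Illumina platform, and the submitters' notes name CASAVA 1.8.2, Bowtie2 2.1.0 and HTSeq with build dm3. The deposited values are whole-number counts of reads per gene, made by the authors for each library, with no strand setting given in the sources used here. Rows for reads outside genes (4.57% to 11.7% of a library) and ambiguous reads (1.33% to 1.53%) were left out of library sizes and tests. Genes averaging 50 or more counts in any group were tested with edgeR 4.0.16 (TMM, quasi-likelihood, 1 fit of 4 groups in R 4.3.3). P-values were Benjamini-Hochberg adjusted over 6884 genes with a threshold of 0.05, and a standard error is the log2 difference divided by the root of F. The scripts were tested on simulated data in which few genes were changed, in 1 group and evenly up and down. That test does not check scaling or calls where most genes differ, as they do here between labels. The members and lists were chosen with earlier results of these data known. Values per library are given for the catalytic beta subunits, Rpn11, the ubiquitin receptors and Rpn1, the genes of each class with the lowest adjusted p between genotypes, and each paralog with a count. Of the other lists, up to 3 genes with the lowest such p are named, and Rpn3, Pros29 and other members were added after their values were seen. Current symbols, coding lengths (longest coding sequence, planned from protein lengths) and exon overlaps come from the Ensembl 115 annotation of dm6, and no coordinates are given. Alternatives were RLE, library sizes alone, DESeq2 1.42.0, other minimum counts, stricter thresholds, only the groups compared, a replicate block and leaving out libraries.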

Additional observations from a re-analysis of the deposited data

Results flagged for a closer look

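For 9 of 28 tested members the difference between SHMT and wild type itself differed between the labels by the interaction test of edgeR. Of these 5 passed in the higher and 4 in the lower direction, where 12.2% and 26.3% of all genes tested passed. Rpn5, Rpn9, Rpn3 and Rpt4 kept the call in all 20 refits, and the others lost it in 1 to 12 of them. The values are the log2 difference between the genotypes at the 1.5–2.5 hr label minus that at the 0–1 hr label. They were −1.17 for Rpn5, −0.86 for Rpn9, −0.65 for Rpn3 and −0.38 for Pros45. They were 0.60 for Rpt4, 0.53 for Pros54, 0.40 for Pros35, 0.32 for Prosbeta7 and 0.31 for Prosbeta1. For all 9 the difference at the 0–1 hr label was larger in size than that at the other, and zygotic and maternal marker RNAs also differed between the genotypes at that label. Their part was not tested.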

How the results depend on the processing

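With library sizes alone, Pros29 went from −0.47 to 0.046 between labels in wild type, and Prosalpha7, Prosbeta5 and Rpn12 turned to 0.0019, 0.030 and 0.020 between genotypes under the 0–1 hr label. The core medians became −0.0021 (genotypes, 0–1 hr label), −0.81 (labels, wild type), −0.81 (labels, SHMT) and −0.013 (interaction), and the regulatory medians 0.39, 1.64, 1.43 and −0.30. With no minimum beyond 1 count the core medians between labels were −1.11 in wild type and −0.96 in SHMT and the regulatory one 1.33 in wild type, and with filterByExpr the core medians were −1.20 and −1.002. The 14 members lower in SHMT under the 0–1 hr label became 1 with library sizes alone, 4 with no minimum, 7 with only the groups compared, 4 without the libraries over 11%, 4 at the stricter threshold of 0.01, 0 over 4-fold, and 6 to 14 with 1 library left out. The 6 higher became 0 over 4-fold. The 1 member higher under the 1.5–2.5 hr label became 2 with no minimum (Rpn12R, at 0 in wild type, was added), 0 at an adjusted p under 0.01, 0 over 4-fold and 0 to 1 with 1 library left out. No member passed 16-fold between labels (0 higher and 0 lower in either genotype). The 5 members with a higher interaction became 8 with RLE, 1 with library sizes alone, 14 by DESeq2, 1 with no minimum, 3 with filterByExpr, 3 without the libraries over 11%, 1 at an adjusted p under 0.01, 0 over 4-fold and 2 to 7 with 1 library left out, and the 4 lower became 0 over 4-fold. With 1 library left out, the core median between labels in wild type was −1.36 to −1.20, the regulatory one 0.94 to 1.34, and the regulatory median between genotypes under the 1.5–2.5 hr label 0.0027 to 0.0613. Of same-numbered replicates some deviated together and others did not (correlations from −0.239 to 0.542, with 0.53 and 0.542 for replicates 2 and 3 of the genotypes under the 1.5–2.5 hr label), so the numbers were not taken to pair the samples. With a replicate block the counts there, under the 0–1 hr label, became 5 higher and 13 lower, with no other count changed. Apart from the effect of the settings on scaling or on the samples used, the cause was not tested. Paralogs below the minimum mean count of 50 were left untested by that choice.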
